A study of Mus with 8 samples.

Results

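Chemokines are small secreted proteins that draw leukocytes along a gradient by acting on G protein-coupled receptors. They are grouped by the spacing of their first cysteines into CC, CXC and CX3C families, and most share receptors with close relatives. In the arterial wall, smooth muscle cells, fibroblasts, endothelial cells and macrophages all release chemokines, and those that act on monocytes, neutrophils and T cells are best known from vascular inflammation. The gene list described here holds 34 chemokines, chemokine receptors and members of the chemerin system. Its members were found by matching the platform's gene symbol, old or current, of each probe to the list. 31 of the 34 genes had a probe, 48 probes in all out of 46237. 22 of them passed the filter on dim probes, among 11859 genes tested in all. Ccl8, Ccl12 and Cxcl5 had no matching probe and were not analysed here.

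The cells were vascular smooth muscle cells grown from the aorta of male C57 black 6 mice aged 8 weeks and profiled at passage 1 in serum-containing medium. The 4 KO cultures came from mice with a floxed Tie2 gene and the SM22α Cre transgene, which is driven by the promoter of a smooth muscle gene, so other cell types in a culture need not lose Tie2. The 4 WT cultures had the floxed gene and no Cre, so the floxed allele is shared by both groups and no culture had Cre without it. The labels number the cultures within each group without naming separate mice as their sources, and they do not state whether a culture pools several mice. A p-value here therefore speaks of the spread among these 8 cultures, which may be partly technical. KO replicates 3 and 4 lay on slide 2, and all other cultures lay on slide 1.

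The arrays had median scanner intensities of 94.7 to 128.1, between 44.9% and 49.5% of probes were detected, and pairs of arrays correlated at 0.912 to 0.980. Levels below are neqc-normalized log2 intensities, on which 4.2 is close to the floor. Levels of different probes are not compared, because probes differ in brightness for the same amount of RNA. Tek, the gene of Tie2, stood at 4.78, 5.56, 5.36 and 5.26 in KO cultures, against 6.44, 7.42, 6.66 and 6.35 in WT cultures. The groups did not overlap, the log2 fold change was -1.48 (SE 0.27) and the limma adjusted p was 0.81. 11 of 12 smooth muscle markers were among the tested genes, and 1 of them, the smooth muscle actin gene Acta2, lay near the top of the scale on every array, between 14.56 and 14.64. Not all markers of the list did so. Cnn1 lay near the floor, between 4.23 and 5.75, and was detected on 3 KO arrays and 1 WT array. Myh11 ranged from 8.03 to 8.75 in KO cultures and from 5.23 in WT replicate 2 to 8.12 in WT cultures. Most macrophage markers were also present. 31 of 35 passed the filter, while Itgam, Itgb2 and Cd74 were detected on 3 arrays each and Cybb on 0. Fcer1g, the signalling subunit of immunoglobulin receptors of myeloid cells, stood at 11.35, 10.92, 7.56 and 9.69 in KO cultures, against 12.06, 12.91, 8.37 and 10.12 in WT cultures. Tyrobp, an adaptor of myeloid receptors, ranged from 5.61 to 9.99 in KO cultures and from 6.18 to 10.48 in WT cultures, and Cd68, a lysosomal protein of macrophages, from 6.02 to 9.59 in KO cultures and from 7.02 to 11.18 in WT cultures.

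The cultures expressed a broad set of chemokine ligands, and few chemokine receptors of the list were detected. 13 of the 31 members with a probe were detected on all 8 arrays through at least 1 probe. 9 were detected on 4 to 7 arrays, 5 on 1 to 3 arrays and 4 on none. The genes detected on every array were Ccl2, Ccl4, Ccl7, Ccl9, Ccl11, Ccl25, Ccl27a, Cxcl1, Cxcl12, Cxcl14, Cxcl16, Cx3cl1 and Rarres2. Ccl5, Ccl17, Ccl19, Cxcr4 and Ccrl2 were detected on 7 arrays, Ccl3, Ccl6 and Cxcl2 on 5, and Ccl20 on 4. A gene with several probes is counted here by its best detected one.

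9 members did not pass the filter. The interferon-induced ligands Cxcl9 and Cxcl10, which act on T cells through Cxcr3, were near background. Cxcl9 was detected on 1 of 4 KO and 1 of 4 WT arrays, and both Cxcl10 probes were detected on 0 of 4 KO arrays and 1 of 4 WT arrays. That array was WT replicate 2, where the Cxcl10 probes stood at 5.96 and 6.08. Cxcl3, a neutrophil attractant, was detected on 1 of 4 KO and 1 of 4 WT arrays, and Cxcl15, a mouse chemokine known from lung, on 0 of 4 KO and 1 of 4 WT arrays. Cxcl13, the B cell attractant, was detected on 0 of 8 arrays. Among the receptors, Ccr1 was detected on 1 of 4 KO and 1 of 4 WT arrays, and Ccr10, Cxcr6 and Cmklr1 on 0 of 8 each. These receptors bind, among others, Ccl3 and Ccl9 (Ccr1), Ccl27a (Ccr10), Cxcl16 (Cxcr6) and the chemerin encoded by Rarres2 (Cmklr1). For these 4 receptors the ligand was detected and the receptor probe was near or at background. Each of the 4 was read by 1 probe only, and whether that probe can detect its transcript was not tested. A probe of Ccl20, of Cxcl12 and of Cx3cl1 was also detected on 0 of 8 arrays, although other probes of these genes were detected.

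**Figure D1:**
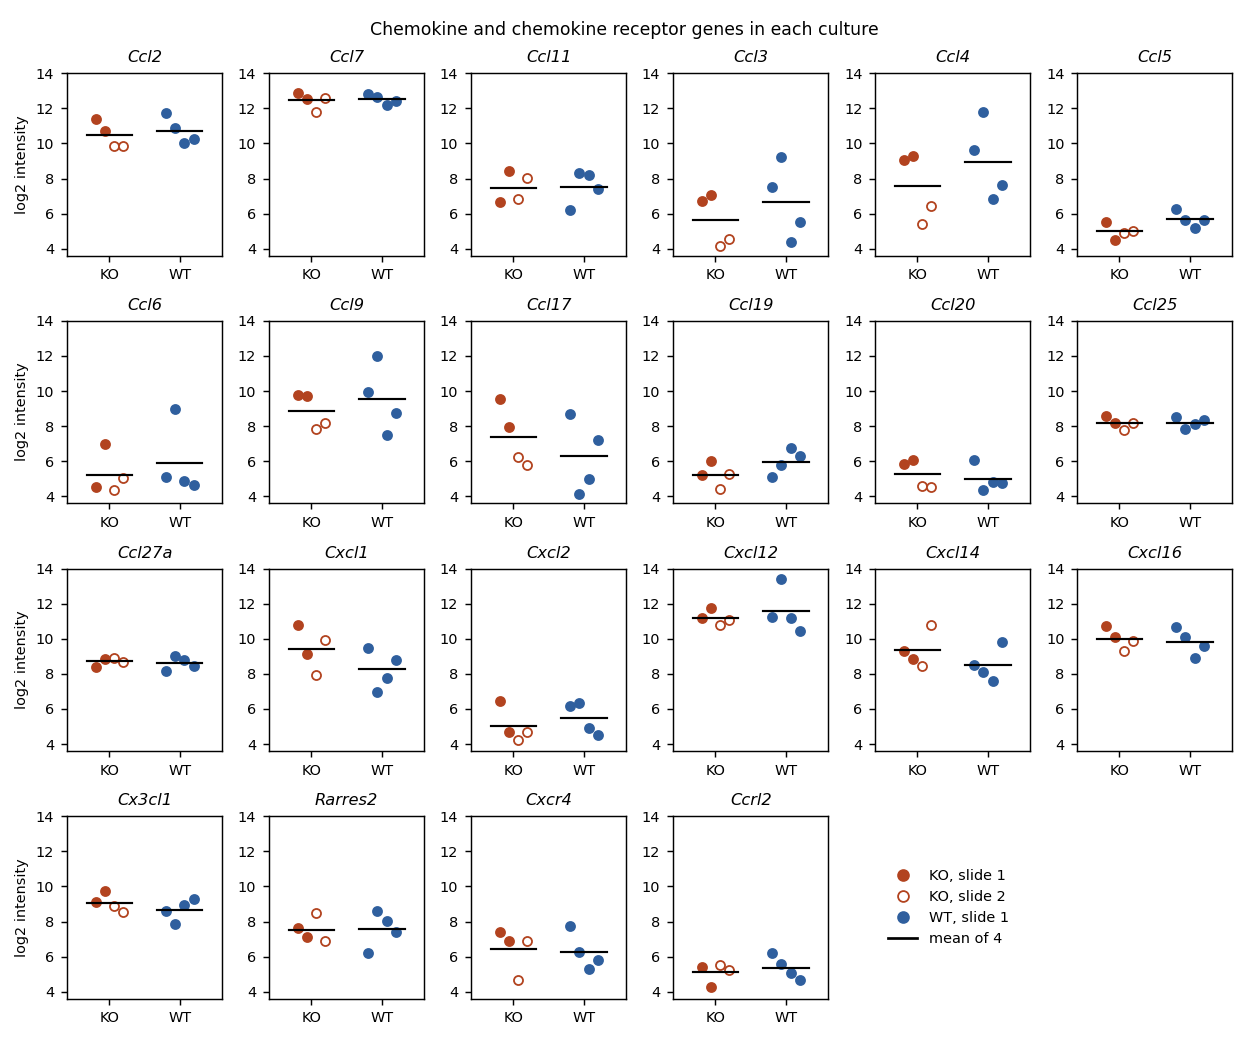
Log2 intensity (neqc) of the 22 tested genes in each culture, KO left and WT right in every panel, with replicates 1 to 4 from left to right and a line at the mean of 4. Open points are KO replicates 3 and 4, which lay on slide 2. Ccl3, Ccl4, Ccl9 and Ccl17 spread widely within both groups, Ccl25 and Ccl27a vary little, and in no panel do the groups separate.

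Several of the tested members varied widely between cultures. The 8 cultures spanned at least 8-fold for 8 of the 22 members, against 3.50% of all tested genes. Ccl4 spanned 80.9-fold and Ccl9 22.4-fold, both detected on every array. For Ccl17, Ccl3 and Ccl6 the lowest culture was at or near the floor, so the size of their span depends on the background correction. Ccl25, a thymic and gut chemokine, and Ccl27a, known from skin, spanned the least, 1.77-fold and 1.83-fold. The plot of members by culture shows that this spread lies within the groups: both KO and WT held cultures with high and with low Ccl3, Ccl4 and Ccl9.

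Ccl3, Ccl4 and Ccl9 followed the macrophage markers. Ccl3 and Ccl4 encode macrophage inflammatory proteins, which attract monocytes and T cells. Ccl9 encodes a mouse ligand of Ccr1 made by macrophages and other myeloid cells. Ccl4 stood at 9.04, 9.28, 5.43 and 6.45 in KO cultures, against 9.63, 11.77, 6.81 and 7.65 in WT cultures. Its scanner intensities before normalization were 663, 744, 127 and 164 in KO cultures, against 652, 3349, 227 and 299 in WT cultures. WT replicate 2 was the highest and KO replicate 3 the lowest on both scales, and the groups overlapped. Ccl3 stood at 6.70, 7.08, 4.18 and 4.53 in KO cultures, against 7.50, 9.24, 4.37 and 5.54 in WT cultures. Its probe was detected on 2 of 4 KO and 3 of 4 WT arrays. Ccl9 stood at 9.79, 9.70, 7.86 and 8.16 in KO cultures, against 9.94, 12.00, 7.51 and 8.78 in WT cultures. For all 3 genes WT replicates 1 and 2 were the highest, KO replicates 1 and 2 came next, and KO replicates 3 and 4 and WT replicate 3 were the lowest.

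The macrophage marker score, the mean standardized level of 31 tested marker genes with no chemokine among them, ran in nearly the same order. It was 0.51, 0.20, -1.30 and -0.60 in KO cultures, against 0.91, 1.22, -0.83 and -0.10 in WT cultures. Fitted with limma across all genes, Ccl4 rose by 2.27 log2 units per unit of the score (SE 0.22, adjusted p = 0.0015), Ccl3 by 1.97 (SE 0.21, adjusted p = 0.0026) and Ccl9 by 1.55 (SE 0.22, adjusted p = 0.010). Positive slopes passed for 121 of 11859 genes (1.02%) and negative slopes for 21 (0.177%). Of the 31 markers, which make up the score, 23 passed with a positive slope, while H2-Ab1 and H2-Eb1 hardly followed it (r = 0.08 and 0.05). Outside the marker list, 98 of 11828 genes (0.829%) passed with a positive slope, among them these 3 of the 22 members. 0 members had a negative slope past the threshold. 10 of the 22 members had an unadjusted p under 0.05 for the slope, against 11.3% of all tested genes.

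Over the 8 cultures Pearson's r with the score was 0.964 for Ccl4, 0.957 for Ccl3 and 0.929 for Ccl9, with exact permutation p-values of 0.00022, 0.00027 and 0.00064. Adjusted over all genes, these exact permutation p-values were 0.052, 0.056 and 0.083, above the threshold that the limma slopes passed. Spearman's rho was 0.952 for Ccl4 (exact permutation p = 0.0011), 0.976 for Ccl3 (0.0004) and 0.976 for Ccl9 (0.0004). 44 such relations were computed, 22 members against each of 2 scores. Leaving out WT replicate 2 and KO replicate 3, the cultures farthest from the median score, r was 0.938, 0.957 and 0.960 for Ccl4, Ccl3 and Ccl9. Within the 6 cultures of slide 1, r was 0.936, 0.955 and 0.942. In the limma fit to these 6 cultures 0 members passed the threshold, against 35 of all tested genes. With Fcer1g in place of the score, r was 0.950, 0.944 and 0.928. The slope of Ccl3, a dim probe, was 1.02 in the authors' value table and 1.03 without background correction. The second probe of Ccl4 had r = 0.94 with the score. In RNA of a whole culture, more macrophages and more chemokine RNA per macrophage cannot be told apart, and which cells of the culture held these transcripts was not measured.

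**Figure D2:**
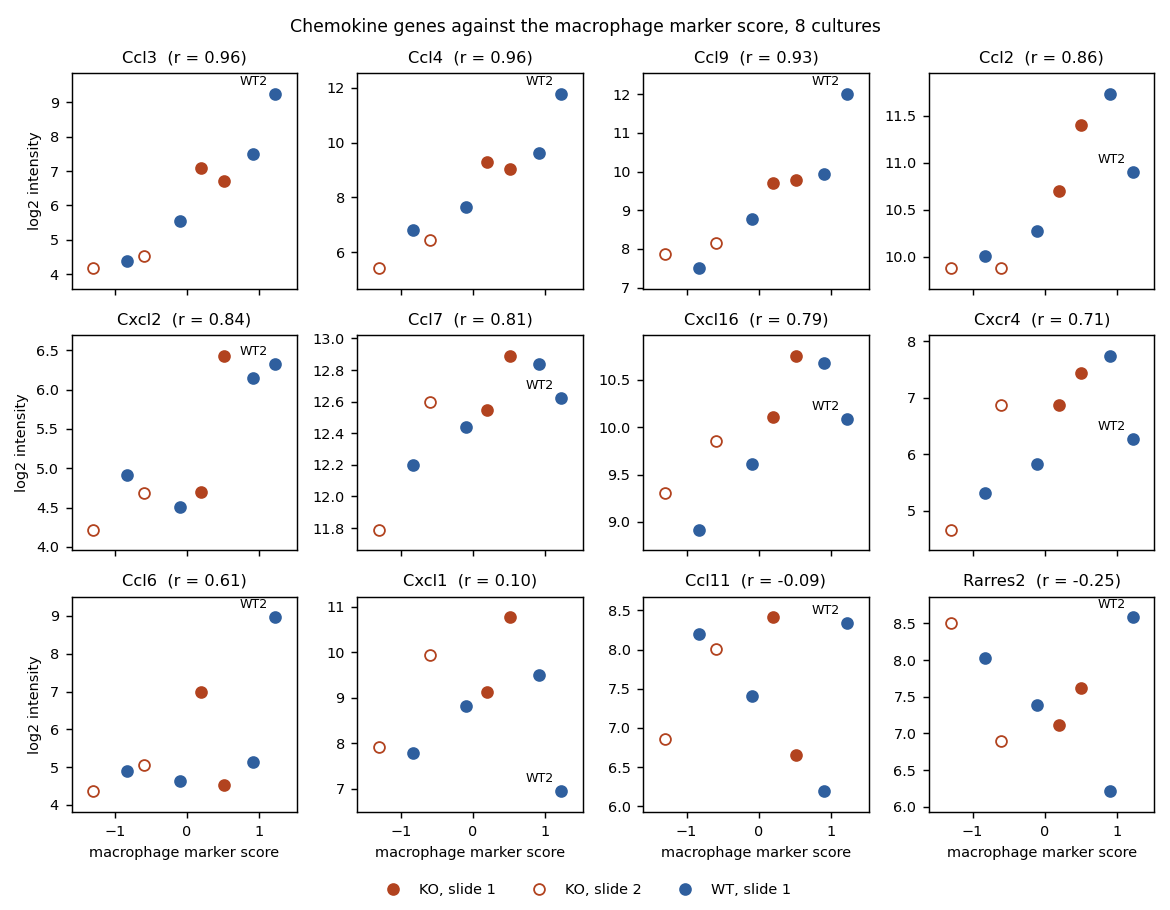
Log2 intensity of 12 chemokine system genes against the macrophage marker score of the same culture, with Pearson's r over the 8 cultures above each panel. Ccl3, Ccl4 and Ccl9 rise with the score from KO replicate 3 at -1.30 to WT replicate 2 at 1.22, whereas r is 0.10, -0.09 and -0.25 for Cxcl1, Ccl11 and Rarres2, and for Ccl2, Ccl7, Cxcl16 and Cxcr4, WT replicate 2 lies below WT replicate 1. Without WT replicate 2, r is 0.678, -0.407 and -0.757 for Cxcl1, Ccl11 and Rarres2.

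These 3 genes lie close together in the genome. In the RefSeq order of coding genes (assembly GRCm38.p6), Ccl5, Ccl9, Ccl6, Ccl3 and Ccl4 follow each other without another coding gene between them. Ccl6 and Ccl5 of the same run did not pass. Ccl6, a mouse myeloid chemokine related to Ccl9, stood at 4.52, 6.99, 4.36 and 5.06 in KO cultures, against 5.13, 8.96, 4.89 and 4.64 in WT cultures. KO replicate 2 and WT replicate 2 were the highest of their groups, and the other 6 cultures lay between 4.36 and 5.13. Against the score it had r = 0.613 over all cultures, with an exact permutation p of 0.11, and 0.309 without WT replicate 2. Ccl5, also called RANTES and known from T cells and activated macrophages, had r = 0.590 with an exact permutation p of 0.12.

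Ccl2 and Ccl7, the monocyte chemoattractants that act on Ccr2, were clearly above background in every culture. They are neighbours in a separate run of CC genes, followed by Ccl11. Ccl2 stood at 11.40, 10.70, 9.88 and 9.88 in KO cultures, against 11.73, 10.90, 10.01 and 10.27 in WT cultures. WT replicate 1 and KO replicate 1 were the highest, and WT replicate 2, with the highest macrophage score, came after them. Ccl2 had a slope of 0.69 per unit of the macrophage score (SE 0.16) and r = 0.856 with an exact permutation p of 0.0089. The limma adjusted p was 0.10, in a range of 0.047 without WT replicate 2 to 0.29 without KO replicate 3 when 1 culture was left out. Ccl7 stood at 12.89, 12.55, 11.79 and 12.60 in KO cultures, against 12.84, 12.62, 12.20 and 12.44 in WT cultures. It varied by 2.14-fold in all, KO replicate 3 being the lowest. Its r was 0.814 and its adjusted p for the slope 0.29.

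Ccl11, or eotaxin, which attracts eosinophils through Ccr3, had another pattern. It stood at 6.65, 8.41, 6.86 and 8.01 in KO cultures, against 6.19, 8.34, 8.20 and 7.41 in WT cultures, and WT replicate 1 and KO replicate 1, the highest for Ccl2, were the lowest here. Against the macrophage score Ccl11 had r = -0.090, with an exact permutation p of 0.82, and -0.407 without WT replicate 2. The second Ccl11 probe correlated with the first at 0.94 over the 8 cultures.

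Cxcl1 and Cxcl2, ligands of Cxcr2 that attract neutrophils and are induced by NF-kB, differed in pattern. Cxcl1 stood at 10.76, 9.12, 7.91 and 9.93 in KO cultures, against 9.49, 6.94, 7.78 and 8.81 in WT cultures. The highest culture was KO replicate 1 and the lowest WT replicate 2, and the groups overlapped. Cxcl1 had r = 0.099 with the macrophage score, with an exact permutation p of 0.81, and 0.678 without WT replicate 2. Cxcl2 stood at 6.43, 4.70, 4.22 and 4.68 in KO cultures, against 6.15, 6.33, 4.91 and 4.51 in WT cultures. KO replicate 1 and WT replicates 1 and 2 stood above the others, which lay between 4.22 and 4.91. Its r with the score was 0.843, with an exact permutation p of 0.014, and the limma adjusted p was 0.10. The second Cxcl2 probe, also dim, correlated with the first at 0.11 and with the score at -0.08, so the pattern of Cxcl2 rests on 1 probe.

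Cxcl16 and Cx3cl1 are made as membrane-bound chemokines that can be shed, and bind Cxcr6 and Cx3cr1. Cxcl16 stood at 10.75, 10.11, 9.31 and 9.85 in KO cultures, against 10.67, 10.08, 8.92 and 9.61 in WT cultures. KO replicate 1 and WT replicate 1 were the highest and KO replicate 3 and WT replicate 3 the lowest. Cxcl16 had r = 0.786 with the score, with an exact permutation p of 0.022, and its adjusted p for the slope was 0.23. A second, dimmer probe had r = 0.94. Cx3cl1, or fractalkine, stood at 9.11, 9.73, 8.90 and 8.54 in KO cultures, against 8.62, 7.86, 8.93 and 9.30 in WT cultures, with WT replicate 2 the lowest. Its r with the score was -0.321, with an exact permutation p of 0.45. A further probe assigned to Cx3cl1 was detected on 0 of 8 arrays.

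Cxcl12, the ligand of Cxcr4 that holds blood progenitors in their niche and is made by mesenchymal cells, was detected on every array through 3 probes, whose patterns over the cultures differed. The platform annotation ties them to 3 different Cxcl12 transcripts, called A, B and C here. Of the further probes assigned to Cxcl12, 1 was detected on 0 of 4 KO and 2 of 4 WT arrays and 1 on 0 of 8 arrays. Probe A, the brightest and so the one that represents the gene, stood at 11.21, 11.74, 10.81 and 11.08 in KO cultures, against 11.25, 13.41, 11.19 and 10.46 in WT cultures. WT replicate 2 was the highest and WT replicate 4 the lowest. Probe B stood at 10.72, 10.29, 11.62 and 10.62 in KO cultures, against 11.61, 12.07, 10.00 and 9.50 in WT cultures. Probe C stood at 10.23, 10.05, 11.10 and 10.04 in KO cultures, against 11.15, 11.44, 9.26 and 8.87 in WT cultures. Probes B and C moved together (r = 0.99 over the 8 cultures), and their correlations with probe A were 0.58 and 0.57. KO replicate 3 was the lowest KO culture by probe A and the highest KO culture by probes B and C. The log2 fold changes of KO over WT were -0.37, 0.02 and 0.17 for A, B and C, with standard errors of 0.56, 0.57 and 0.58.

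**Figure D3:**
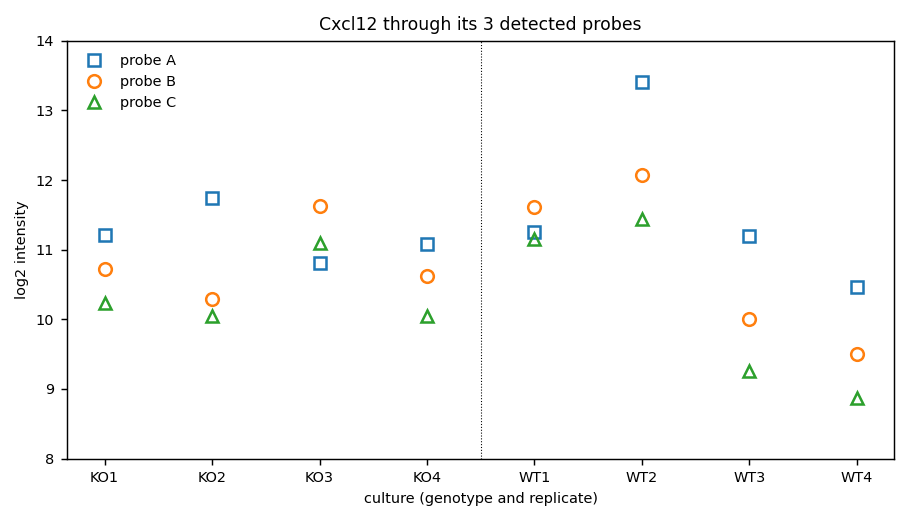
Log2 intensity of the 3 Cxcl12 probes that passed the filter in each culture, KO replicates left of the dotted line and WT replicates right of it. WT replicate 2 is the highest culture by all 3 probes, while KO replicate 3 is low by probe A (10.81) and high by probes B (11.62) and C (11.10).

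Through probe A, Cxcl12 was the 1 member that passed the threshold against the interferon gene score, the mean standardized level of 16 tested interferon-induced genes. That score was -0.06, -0.35, -0.22 and -0.39 in KO cultures, against -0.33, 2.07, -0.18 and -0.54 in WT cultures, so WT replicate 2 stood far from the other 7. Positive slopes passed for 55 of 11859 genes (0.464%) and negative slopes for 33 (0.278%). The slope of Cxcl12 was 0.97 (SE 0.16, limma adjusted p = 0.039). Its r was 0.922 with an exact permutation p of 0.029 and Spearman's rho 0.548 with an exact permutation p of 0.17. Adjusted over all genes, the exact permutation p of r was 0.48, and 0 of 11859 genes passed by it. In limma Cxcl12 also missed the threshold when WT replicate 3 or 4 or KO replicate 1 or 4 was left out. Without WT replicate 2 the r was 0.347, and without WT replicates 2 and 4, the cultures farthest from the median score, it was -0.270. The relation therefore rests on WT replicate 2, without which 0 genes of the whole array passed. Probes B and C had r = 0.62 and 0.56 with the interferon score.

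Cxcl14, a CXC ligand known from epithelium and fibroblasts, stood at 9.29, 8.85, 8.43 and 10.80 in KO cultures, against 8.48, 8.08, 7.60 and 9.80 in WT cultures. KO replicate 4 and WT replicate 4 were the highest and the replicates 3 the lowest of each group. Cxcl14 had r = -0.117 with the macrophage score, with an exact permutation p of 0.78, and both of its probes moved together (r = 0.90). Ccl17, the ligand of Ccr4 made by dendritic cells and macrophages, stood at 9.54, 7.95, 6.22 and 5.78 in KO cultures, against 8.71, 4.15, 5.02 and 7.23 in WT cultures. KO replicate 1 and WT replicate 1 were the highest, and in WT replicate 2 it was at the floor. Its r with the macrophage score was 0.258 over all cultures, with an exact permutation p of 0.53, and 0.868 without WT replicate 2. Ccl17 and Cx3cl1 are neighbours in the genome.

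Ccl19, a ligand of Ccr7 that guides T cells and dendritic cells to lymph nodes, stood at 5.23, 6.00, 4.45 and 5.28 in KO cultures, against 5.11, 5.77, 6.75 and 6.32 in WT cultures. Ccl20, the ligand of Ccr6, was detected on 2 of 4 KO and 2 of 4 WT arrays through 1 probe, and a second probe was detected on 0 of 8. Ccl25 ranged from 7.78 to 8.60 in KO cultures and from 7.82 to 8.54 in WT cultures, and Ccl27a from 8.40 to 8.91 in KO cultures and from 8.17 to 9.04 in WT cultures. Over all cultures r with the macrophage score was 0.42 for Ccl20, 0.349 for Ccl25 and -0.278 for Ccl27a. Without WT replicate 2 it was 0.869, 0.898 and -0.792. Ccl19 and Ccl27a have close copies in the mouse genome, and whether their probes also bind transcripts of those copies was not tested.

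Of the receptors on the list, Cxcr4, the receptor of Cxcl12, was the 1 signalling receptor that passed the filter. It stood at 7.43, 6.87, 4.67 and 6.87 in KO cultures, against 7.74, 6.27, 5.31 and 5.82 in WT cultures, with KO replicate 3 near the floor. Its r with the macrophage score was 0.711, with an exact permutation p of 0.052, and 0.887 without WT replicate 2. The limma adjusted p for its slope over all cultures was 0.31. Rarres2, which encodes chemerin, stood at 7.62, 7.11, 8.50 and 6.89 in KO cultures, against 6.21, 8.58, 8.03 and 7.38 in WT cultures. KO replicate 3 and WT replicate 2, at opposite ends of the macrophage score, had nearly the same level. The r of Rarres2 with the score was -0.249, with an exact permutation p of 0.55, and -0.757 without WT replicate 2. Its other probes had r = 0.14 and 0.11 over all cultures. Ccrl2, which binds chemerin without signalling, stood at 5.42, 4.27, 5.52 and 5.23 in KO cultures, against 6.22, 5.56, 5.05 and 4.68 in WT cultures.

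No chemokine or receptor of the list differed between KO and WT past the threshold. In limma 0 of 11859 genes passed an adjusted p of 0.05 (0%), and 0 of the 22 members. 14 of the 22 members were lower in KO by sign, against 50.3% of all tested genes, and their median log2 fold change was -0.06, against 0.00 over all tested genes. This median was 0.19 within slide 1 and 0.12 without WT replicate 2. 1 member had an unadjusted p under 0.05, against 5.74% of all tested genes. The groups overlapped for all 22, whereas among all genes 1.61% did not overlap with KO higher and 1.67% with KO lower.

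The member with the smallest p was Ccl5. It stood at 5.54, 4.49, 4.90 and 5.01 in KO cultures, against 6.25, 5.63, 5.19 and 5.65 in WT cultures, so that 3 of 4 KO cultures lay below every WT culture. The means were 4.99 ± 0.43 in KO and 5.68 ± 0.43 in WT (SD, n = 4 each), a log2 fold change of -0.70 (SE 0.28, limma adjusted p = 0.83). The probe was dim, detected on 3 of 4 KO and 4 of 4 WT arrays, and both the authors' value table and the fit without background correction gave a log2 fold change of -0.23. The next lower by p were Ccl19 (log2 fold change -0.75, SE 0.41) and Ccl4 (-1.41, SE 1.22), with adjusted p-values from limma of 0.83 and 0.84. Ccl19 stood at -0.28 in the authors' value table and at -0.38 within slide 1.

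Among the members higher in KO by sign, Cxcl1 averaged 9.43 ± 1.21 in KO and 8.26 ± 1.12 in WT (SD, n = 4 each), a log2 fold change of 1.17 (SE 0.70, limma adjusted p = 0.83). Leaving out 1 culture moved it between 0.73 without KO replicate 1 and 1.68 without KO replicate 3. Cxcl14 had a log2 fold change of 0.85 (SE 0.59), and its second probe gave 0.75. Leaving out 1 culture moved Cxcl14 between 0.37 without KO replicate 4 and 1.29 without WT replicate 4. Cx3cl1 had 0.39 (SE 0.35), and 0.12 without WT replicate 2. Ccl17 had 1.10 (SE 1.13), 0.38 without KO replicate 1 and 2.47 within slide 1. The limma adjusted p-values of these 3 genes were 0.83, 0.84 and 0.86.

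**Figure D4:**
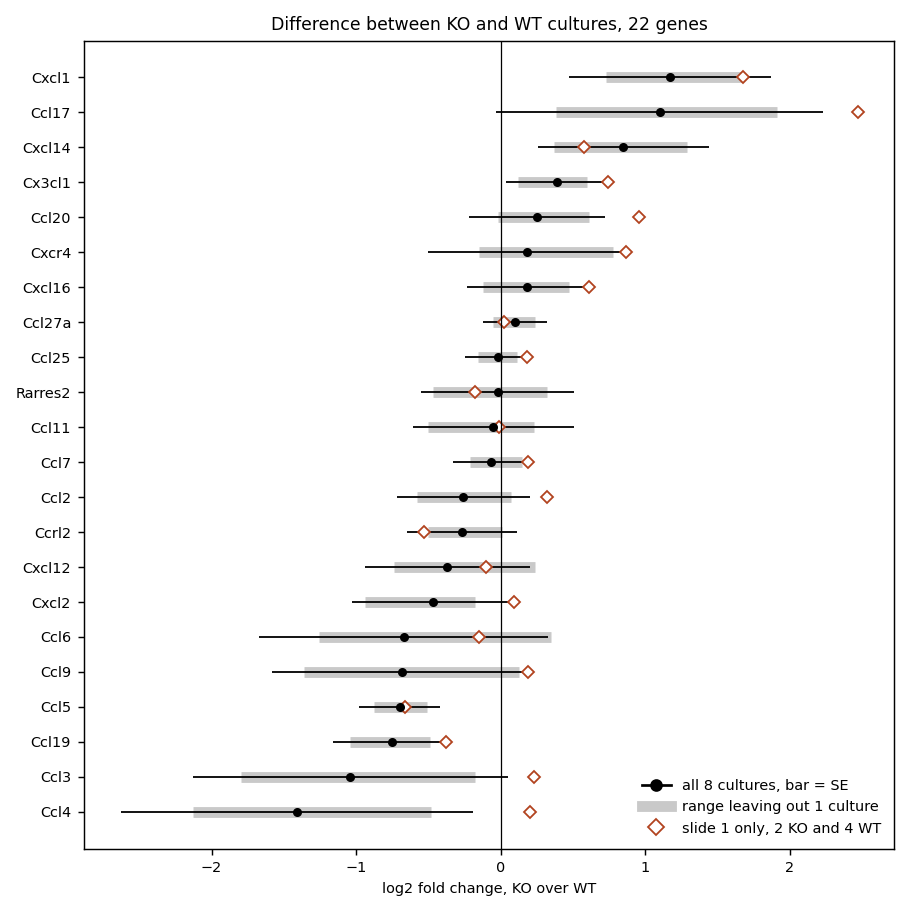
Log2 fold change, KO over WT, of the 22 tested genes, with the standard error as a bar, the range over the fits that leave out 1 culture in grey and the value within slide 1 (2 KO and 4 WT cultures) as a diamond. Ccl3, Ccl4 and Ccl9 lie below 0 over all 8 cultures (-1.04, -1.41 and -0.68) and just above 0 within slide 1 (0.23, 0.20 and 0.19).

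The chemokines that followed the macrophage score had negative log2 fold changes with wide errors. They were -1.41 for Ccl4 (SE 1.22), -1.04 for Ccl3 (SE 1.09) and -0.68 for Ccl9 (SE 0.90). Ccl4 averaged 7.55 ± 1.91 in KO and 8.96 ± 2.21 in WT, and Ccl3 averaged 5.62 ± 1.48 in KO and 6.66 ± 2.15 in WT (SD, n = 4 each). The macrophage score differed in the same direction, by -0.60, with an exact permutation p of 0.371 over 70 assignments, and by -0.97 without WT replicate 3 and -0.29 without KO replicate 3. 30 of the 31 tested macrophage markers were lower in KO by sign, 0 passed the threshold and their median log2 fold change was -0.98. Their mean level ranged from 5.93 to 8.82 in KO cultures and from 6.66 to 9.94 in WT cultures, and Cybb, an oxidase gene of phagocytes on the list, was detected on 0 arrays. The part of the macrophage markers in these fold changes was not tested.

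Slide 2 held KO cultures only, with the macrophage scores -1.30 and -0.60. Within slide 1, 2 KO cultures against 4 WT cultures, the log2 fold changes of Ccl4, Ccl3 and Ccl9 were 0.20, 0.23 and 0.19, and the score difference, scored anew, was 0.08. Ccl2 and Ccl7 stood at 0.32 and 0.19 there, against -0.26 and -0.07 over all cultures, and 7 of the 22 members were lower in KO by sign. The fit with slide as a block gives the same estimates, since slide 2 holds no WT culture, so these are not separate checks. Without WT replicate 3, Ccl4 stood at -2.13, Ccl3 at -1.80 and Ccl9 at -1.36. Without WT replicate 2, Ccl4 stood at -0.48, Ccl3 at -0.18 and Ccl9 at 0.13, and 9 of the 22 members were lower in KO by sign.

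Several genes had further kept probes, and those of Cxcl16, Ccl27a and, as given above, Cxcl12 differed in sign. Cxcl16 had a log2 fold change of 0.18 through its brightest probe and -0.22 through the other. Rarres2 had -0.02 through its brightest probe and -0.73 and -0.30 through the others. Second probes gave -0.98 for Ccl4, -0.36 for Ccl7, -0.33 for Cxcl2, -0.23 for Ccl11, -0.14 for Ccl25 and -0.09 for Ccl27a. Through their brightest probes the log2 fold changes were 0.25 for Ccl20, 0.18 for Cxcr4, 0.10 for Ccl27a, -0.02 for Ccl25, -0.05 for Ccl11, -0.27 for Ccrl2, -0.47 for Cxcl2 and -0.67 for Ccl6, each smaller than its standard error.

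Among other genes of the chemokine system, 9 of 33 on the array were tested and 0 passed between KO and WT, 2 being higher and 7 lower in KO by sign. 1 of the 9 passed against the macrophage score. This was Pf4, a CXC ligand known from platelets and also made by macrophages, with a slope of 2.26 (SE 0.29, limma adjusted p = 0.0053). Pf4 stood at 8.36, 8.67, 4.95 and 5.59 in KO cultures, against 8.58, 11.39, 5.93 and 7.96 in WT cultures. Cx3cr1, the receptor of Cx3cl1 and a marker of resident macrophages and microglia, ranged from 5.18 to 6.92 in KO cultures and from 4.92 to 7.83 in WT cultures, and its adjusted p for the slope was 0.30.

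Of 20 tested signalling genes below chemokine receptors, 0 passed between KO and WT, 10 being higher and 10 lower by sign. 3 passed against the macrophage score, all with positive slopes. They were Vav1 and Rac2, which act in leukocyte migration, with slopes of 1.50 and 1.28, and the arrestin gene Arrb2, with 0.90 (limma adjusted p-values 0.0037, 0.012 and 0.0086). Of 24 tested genes of NF-kB and the cytokines that induce chemokines, 0 passed between KO and WT, 12 being higher and 12 lower by sign. Tlr2, Tnf and Il1b passed against the macrophage score with slopes of 0.88, 0.91 and 0.77 (limma adjusted p-values 0.0028, 0.012 and 0.044). Tnf and Il1b were dim, detected on 2 KO and 3 WT arrays and on 1 KO and 3 WT arrays. Tnf ranged from 4.26 to 5.29 in KO cultures and from 4.50 to 6.70 in WT cultures, highest in WT replicate 2, as were Ccl3 and Ccl4.

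Of 16 tested interferon genes, 14 were lower in KO by sign, 0 passed and the median log2 fold change was -0.53. The interferon score differed by -0.51, with an exact permutation p of 0.743. All 11 tested smooth muscle markers were higher in KO by sign, Acta2 by 0.01. Of them 0 passed the threshold and their median log2 fold change was 0.67. WT replicate 2 was the lowest culture for Tagln (10.05), Myh11 (5.23), Lmod1 (5.77), Myl9 (11.61), Smtn (9.38), Myocd (5.12), Csrp1 (12.02) and, narrowly, Acta2 (14.56). WT replicate 1 was the lowest for Des and Mylk, and Cnn1 stood at 4.23 in both WT replicate 2 and WT replicate 3. The mean level of the smooth muscle markers ranged from 10.12 to 10.22 in KO cultures and from 8.85 to 10.28 in WT cultures. 5 of 6 tested endothelial markers were higher in KO by sign, and 6 of 7 adventitial fibroblast markers were lower, with 0 past the threshold in either list. 3 of 4 tested neutrophil markers were higher in KO by sign, and Cd3e, the 1 lymphocyte marker that passed the filter, had a log2 fold change of 0.65 (SE 0.55). The part of these cell types in the values of the chemokines was not tested.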

How the data were processed

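RNA from each of the 8 cultures was hybridised to its own Illumina bead array. Per the file headers, the deposited scanner table holds each probe's bead mean intensity and detection p-value, with no normalization between arrays. A second deposited table holds intensities on a linear scale that the authors normalized by an unstated method, and software and genome build are likewise not given in the sources used here. Probe identifiers of the scanner table do not go with its values: joined on them, the 2 tables had Spearman correlations of -0.0083 to -0.0047 per array. Rows were therefore paired by their ranks within arrays, which gave a partner to 46237 of 46237 rows at a Spearman correlation of 0.9999 or more, and identifiers were taken from the second table. Genes were named by the platform annotation, updated through the RefSeq gene table of GRCm38.p6: 1 gene was found for 35784 probes, several for 0 and none for 10453. The name rested on the gene identifier for 28620 probes, on an accession for 2637, on a synonym for 2343, on the symbol for 2128 and on the platform alone for 56.

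Intensities were processed with neqc of limma 3.58.1 (R 4.3.3), which models background through the detection p-values, uses an offset of 16, quantile-normalizes and gives log2 values. Since the deposited p-values follow 1 background level for each array, dim genes have an uncertain background. A probe was kept if its detection p-value was under 0.05 on 4 or more of the 8 arrays, and the brightest kept probe, over all arrays, stood for a gene. Group differences (KO over WT) and slopes on the macrophage and interferon scores were fitted with lmFit and eBayes, two-sided, with Benjamini-Hochberg adjustment over 11859 genes and a threshold of 0.05. The fit was also run on simulated data with independent noise for each gene and no slide or shared culture effect, so it was not checked under such effects. The number of arrays limits the precision.

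The members, gene lists and marker lists (macrophages, smooth muscle, endothelium, adventitial fibroblasts, lymphocytes, neutrophils, other chemokine genes, receptor signalling, NF-kB and cytokines, interferon genes) were chosen with earlier results of these data known. Every member is accounted for. Described in full are members past the threshold in any fit, the 3 with the smallest p in each direction between KO and WT, and those best known from smooth muscle or macrophages. Alternatives were no background correction, normexp with an offset of 50, the authors' table, the mean of a gene's kept probes, no filter on dim probes, slide, replicate number and genotype in the model, Fcer1g as the score, and leaving out each culture.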

Additional observations from a re-analysis of the deposited data

Results flagged for a closer look

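In WT replicate 2 Ccl6 stood at 8.96, far from the other WT cultures, which lay between 4.64 and 5.13. The same culture had an interferon gene score of 2.07, whereas the other 3 WT cultures scored between -0.54 and -0.18. Each was the highest value of its group by a gap wide enough to pass Dixon's criterion. 48 groups of 4 cultures were looked at and 2 values stood apart, where chance gives about 1 in 20 groups.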

How the results depend on the processing

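Between KO and WT, 0 members and 0 of all tested genes passed under each alternative for which these counts were made (all but the mean of kept probes) and with any culture left out. In limma Ccl3, Ccl4 and Ccl9 passed against the macrophage score without background correction, with normexp, in the authors' table, without the filter, with Fcer1g as the score and with genotype in the model. Of all genes fitted 132, 133, 141, 106, 130 and 96 passed in the same order, against 142 in the main fit. Among the 6 cultures of slide 1, 0 members passed, against 35 of all tested genes. The slope was not refitted with slide or replicate block or with the mean of probes. The count of members ranged from 3 to 4 when 1 culture was left out, Ccl2 joining without WT replicate 2, where 96 of all tested genes passed. With slide as a block, and equally within slide 1, 7 members were lower in KO, the members' median was 0.19 and the log2 fold changes turned to 0.32 (Ccl2), 0.23 (Ccl3), 0.20 (Ccl4), 0.19 (Ccl7 and Ccl9), 0.18 (Ccl25) and 0.09 (Cxcl2). The macrophage score difference became 0.05 with the block and 0.08 within slide 1. Against the interferon score 2 members passed without background correction, with normexp and in the authors' table, Ccl6 joining Cxcl12, and 0 with genotype in the model. Of all tested genes 269, 220, 194 and 8 passed in the same order, against 88 in the main fit. Ccl25 stood at 0.01 in the authors' table, Cxcl16 at -0.02 with the mean of its probes, and the slope of Ccl19 on the macrophage score at -0.02 without background correction and -0.01 with normexp and in the authors' table. The cause of these changes was not tested.

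Leaving out 1 culture gave 9 (without WT replicate 2) to 15 members lower in KO, and 0 to 2 members past against the interferon score. The 2 members passed without KO replicate 2, where 43 of all tested genes passed. The log2 fold changes ranged from -0.50 to 0.23 for Ccl11, -0.58 to 0.07 for Ccl2, -0.02 to 0.61 for Ccl20, -0.16 to 0.11 for Ccl25, -0.05 to 0.24 for Ccl27a, -1.26 to 0.35 for Ccl6, -0.21 to 0.15 for Ccl7, -1.36 to 0.13 for Ccl9, -0.50 to 0.01 for Ccrl2, -0.74 to 0.24 for Cxcl12, -0.12 to 0.47 for Cxcl16, -0.15 to 0.78 for Cxcr4 and -0.47 to 0.32 for Rarres2. Slopes on the macrophage score ranged from -0.39 to 0.20 for Ccl11, -0.37 to 0.31 for Ccl19, 0.57 to 0.79 for Ccl2, -0.25 to 0.00 for Ccl27a, -0.27 to 0.08 for Cx3cl1, -0.16 to 0.82 for Cxcl1, -0.43 to 0.12 for Cxcl14 and -0.65 to 0.05 for Rarres2.

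The labels do not say what a shared replicate number means. Deviations from the group means correlated at 0.06 to 0.32 between cultures of the same number, below 0.1 for 1 pair, so the numbers were not taken to pair the cultures, although 8 of 8 cultures correlated best with their own number, a hint from the data and not the design. With the replicate block 0 genes passed, 14 members were lower in KO and the median of the members was -0.06. The standard errors of Ccl4 and Ccl3 were 0.32 and 0.33 with it (adjusted p = 0.54 and 0.55 in limma). Those of Cxcl14 and Cxcl1 were 0.14 and 0.33 (adjusted p = 0.54 and 0.55 in limma). For Ccl19 and Cx3cl1 they were 0.45 and 0.43, larger than the 0.41 and 0.35 without the block. Signal near background limits what can be said of Ccl3, Ccl5, Ccl6, Ccl19, Ccl20, Cxcl2 and Ccrl2.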
